A study of Saccharomyces cerevisiae with 21 samples.

Results

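The promoters of 33 genes listed as early meiotic recombination genes were examined in maps of Spo11-dependent DNA double-strand breaks (DSBs) of budding yeast. The list was drawn up by gene name, by a rule that uses no measured value, although earlier results of these data were known when it was chosen. For each gene, the reads over the 600 bp upstream of the start codon and, separately, over the open reading frame (ORF) were summed over both strands. All 33 had a usable promoter window, of 5826 protein-coding genes with one. They lie on 13 chromosomes, and 168 genes of chromosome III were left out because the strains carry inserts there. The windows of *HOP1* and *ZIP4*, a divergent pair that shares 647 bp of intergenic DNA (chromosome IX, 225955 to 226601, R64), overlap by 553 bp, so this region is counted under both names. No other member windows overlapped.

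The maps were made by covalent complex sequencing (CC-seq), which purifies and sequences the DNA ends to which Spo11 stays covalently bound, 6 h after cultures were moved to sporulation medium. Reads record where breaks formed and not how strongly a gene was transcribed. Genotypes with active Spo11 were mapped, 4 in all: *sae2Δ ndt80Δ tel1Δ* (5 replicates, strain MJ965), *sae2Δ ndt80Δ* (4 replicates, MJ962), *sae2Δ tel1Δ* (4 replicates, VG402) and *sae2Δ* (5 replicates, MJ315), together with 1 library of *sae2Δ ndt80Δ spo11-Y135F* (GB21), in which the catalytic tyrosine of Spo11 is mutated. All are diploids of the SK1 background, homozygous for *ho::LYS2*, *lys2*, *ura3*, *arg4-nsp*, *his4X::LEU2* and *leu2::hisG*, and all of them, controls included, lack Sae2, without which Spo11 stays on the ends and the breaks are not resected. The 4 genotypes with active Spo11 also carry *nuc1::LEU2*, which the Spo11-inactive strain does not. *NDT80* was replaced with *LEU2*, *SAE2* with *KanMX6* (*KanMX4* in *sae2Δ tel1Δ*), and *TEL1* with *HYG* in the triple mutant and *HphMX4* in *sae2Δ tel1Δ*. Each genotype was thus a single strain, and a genotype and its strain cannot be told apart in the comparisons.

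In budding yeast, Spo11 and its partner proteins cut DNA mostly in the nucleosome-depleted regions upstream of genes, so a promoter can be a break hotspot whatever its gene does. Most of the 33 genes encode parts of the recombination machinery: Spo11 and the proteins it needs to cut, the chromosome axis on which they assemble, the strand-exchange proteins, and the ZMM proteins and synaptonemal complex components that carry breaks towards crossovers. The rest act beside it in meiosis or in spore formation, among them the regulators *IME1* and *IME2* and genes of telomere attachment and of chromosome segregation. Tel1, the yeast ATM kinase, limits further breaks near an existing one, and Ndt80 is the transcription factor that drives exit from meiotic prophase, so that *ndt80Δ* cells stay in prophase. The design asks how break maps respond to Tel1 when the length of prophase is and is not fixed.

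Levels are given as HpM, hits per 1000000 nuclear reads outside the ribosomal DNA, so they are shares of a library and not numbers of breaks per cell. Replicates held 3292558 to 9544086 reads, and a member promoter 7 to 6191 reads in a replicate (median 241.5). A stretch in the part of *NDT80* and of *TEL1* nearer the start codon was at 0 to 0.0237 and 0 to 0.0685 times background in libraries labelled as deleted for them. In the rest it was at 0.917 to 1.13 and 0.812 to 1.07 times background, which is the read density over 47 of the longest ORFs. That background itself differed between libraries: 2.07 to 45.8 HpM per kb in *sae2Δ ndt80Δ tel1Δ*, 5.43 to 51.5 in *sae2Δ ndt80Δ*, 21.2 to 33.5 in *sae2Δ tel1Δ*, 9.81 to 21.3 in *sae2Δ* and 73.1 in the Spo11-inactive library. Scaled to the genome it was 2.49 to 55.2%, 6.55 to 62.2%, 25.6 to 40.4% and 11.8 to 25.7% of the reads of the 4 active genotypes, in the same order. Furthermore, 5 of the libraries, replicates 3 to 5 of *sae2Δ ndt80Δ tel1Δ* and replicates 3 and 4 of *sae2Δ ndt80Δ*, bear deposited names that mark them as part of a time course, and no library of the other genotypes does.

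The 33 promoters together took 0.280 ± 0.059% of reads in *sae2Δ ndt80Δ tel1Δ* (n = 5), 0.317 ± 0.089% in *sae2Δ ndt80Δ* (n = 4), 0.256 ± 0.016% in *sae2Δ tel1Δ* (n = 4) and 0.324 ± 0.031% in *sae2Δ* (SD, n = 5), while covering 0.160% of the scaled genome. As a list they stood in the middle of the genome's promoters. Averaged over the 4 active genotypes, their median was 106 HpM per kb, against 111 for all promoters, and the median member lay at the 48.2nd percentile. Only 5 members were among the top 25% of promoters and 9 among the bottom 25%. The list was uneven: the 4 strongest members, *MSH4*, *CSM4*, *IME1* and *ZIP1*, held 42.4% of the summed promoter signal.

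**Figure D1:**
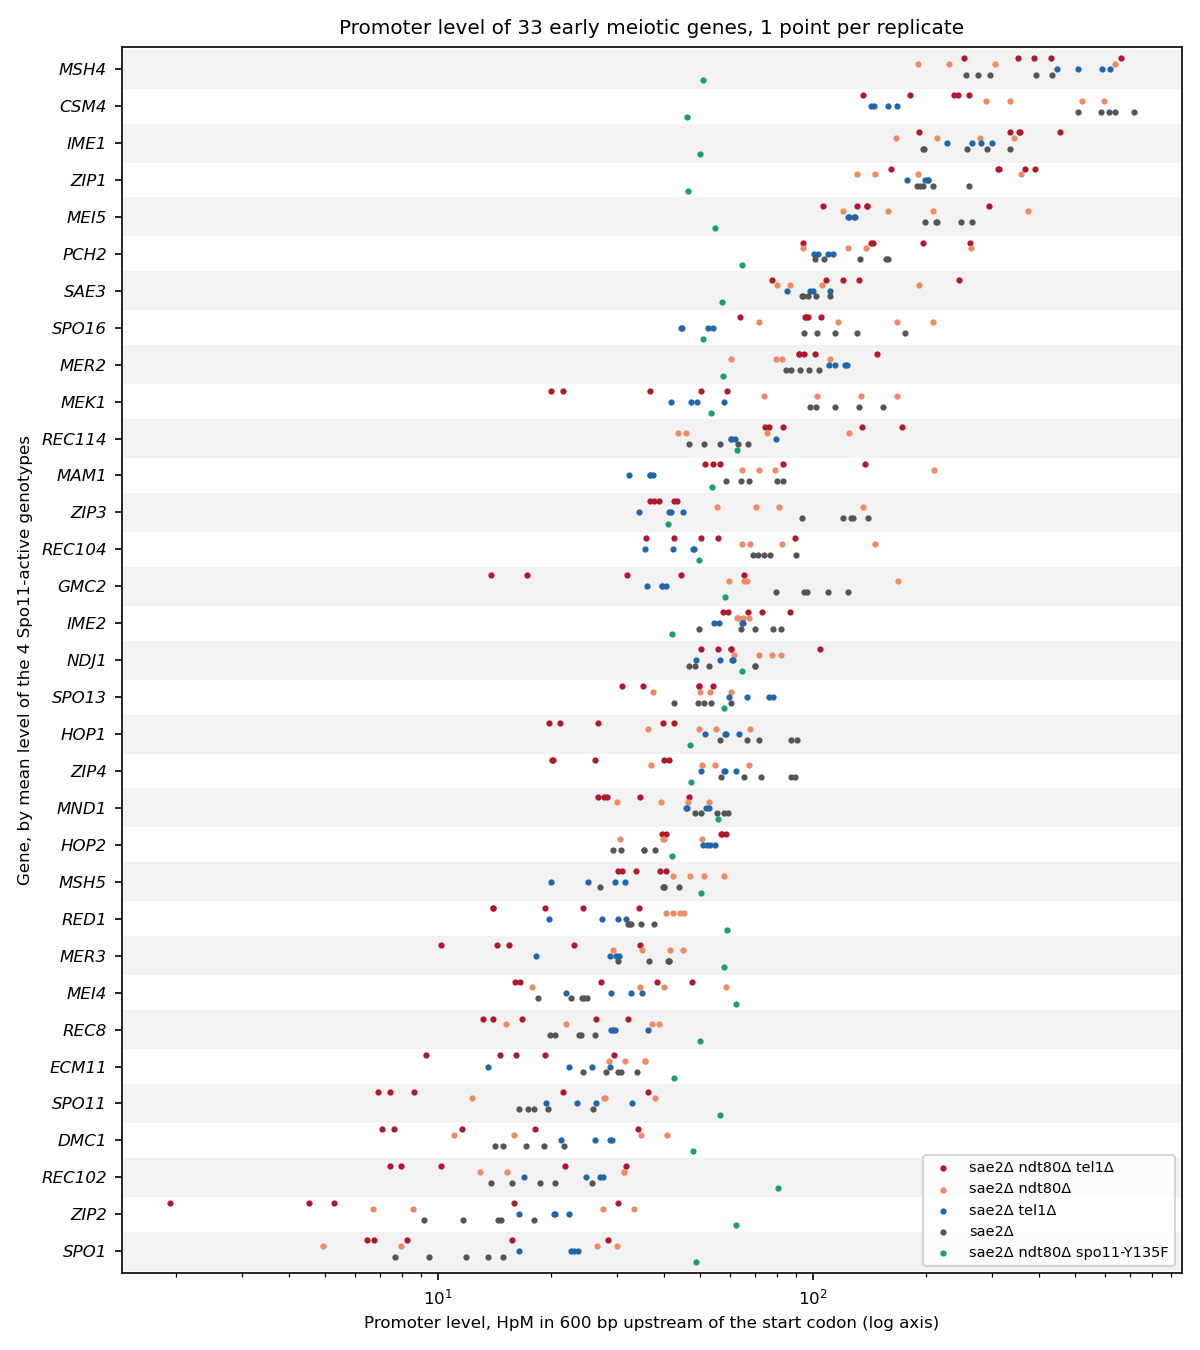
Promoter level (HpM over 600 bp, log axis) of the 33 genes in each replicate of the 4 genotypes with active Spo11 and in the single Spo11-inactive library, genes ordered by their mean over the active genotypes. Levels run from 408 HpM at *MSH4* down to 15.8 HpM at *SPO1*, and the Spo11-inactive values lie in a narrow band from 41.1 to 80.8 HpM.

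*MSH4*, which encodes a subunit of the MutSγ complex that stabilises crossover intermediates, had the strongest member promoter (chromosome VI, 137158 to 137757), at the 92.1st percentile. It read 431, 388, 351, 253 and 661 HpM in *sae2Δ ndt80Δ tel1Δ*, 190, 305, 230 and 637 in *sae2Δ ndt80Δ*, 510, 591, 620 and 448 in *sae2Δ tel1Δ*, and 255, 392, 296, 435 and 275 in *sae2Δ*. All 4 *sae2Δ tel1Δ* replicates were above all 5 *sae2Δ* replicates, but the log2 ratio of 0.71 ± 0.31 did not pass the test (SE; adjusted p = 0.095). The 2 genotypes that lack Ndt80 overlapped for *MSH4*, each with its highest value in a time-course library.

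*IME1*, the transcriptional activator that switches on the early meiotic genes, had its strongest signal far upstream (window at chromosome X, 605652 to 606251). Its promoter read 357, 355, 336, 192 and 456 HpM in *sae2Δ ndt80Δ tel1Δ*, 214, 344, 166 and 280 in *sae2Δ ndt80Δ*, 300, 266, 280 and 227 in *sae2Δ tel1Δ*, and 258, 292, 196, 335 and 198 in *sae2Δ*. The 4 genotypes overlapped, and no *IME1* ratio passed the test. *ZIP1*, which encodes the transverse filament of the synaptonemal complex, read 368, 313, 312, 161 and 392 HpM in *sae2Δ ndt80Δ tel1Δ*, 131, 191, 146 and 358 in *sae2Δ ndt80Δ*, 199, 203, 202 and 178 in *sae2Δ tel1Δ*, and 193, 260, 209, 189 and 197 in *sae2Δ* (chromosome IV, 1031836 to 1032435). Of the 5 triple-mutant replicates, 4 lay above all *sae2Δ tel1Δ* replicates, with a log2 ratio of 0.66 ± 0.27 that did not pass (adjusted p = 0.11).

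Next in the order came *MEI5* at 183 HpM, *PCH2* at 140, *SAE3* at 113, then *SPO16*, *MER2* at 99.8 and *MEK1* at 81.4 (means of the 4 genotype means), and after them levels declined in small steps. The genes of the break machinery were spread over this order, with *MER2* 9th, *REC114* 11th (75.8 HpM) and *REC104* 14th (66.2 HpM) of the 33 and the others further down. *SPO11*, the catalytic subunit, averaged 21.9 HpM, its core-complex partner *REC102* 20.4 HpM, *MEI4*, of the Rec114-Mer2-Mei4 complex, 29.9 HpM. *DMC1*, the meiosis-specific recombinase, was as low, at 21.2 HpM.

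The lowest promoters were those of *ZIP2*, a ZMM protein, and *SPO1*, a phospholipase-like protein needed for spore formation. *ZIP2* (chromosome VII, 32498 to 33097) read 5.27, 4.51, 15.9, 30.2 and 1.92 HpM in *sae2Δ ndt80Δ tel1Δ*, 27.5, 8.54, 33.2 and 6.71 in *sae2Δ ndt80Δ*, 16.4, 20.4, 22.3 and 20.5 in *sae2Δ tel1Δ*, and 18, 9.15, 14.5, 14.7 and 11.6 in *sae2Δ*. *SPO1* (chromosome XIV, 609086 to 609685) read 6.72, 6.45, 15.7, 28.4 and 8.24 HpM in *sae2Δ ndt80Δ tel1Δ*, 26.5, 7.97, 30 and 4.92 in *sae2Δ ndt80Δ*, 16.4, 22.6, 23.6 and 23 in *sae2Δ tel1Δ*, and 14.9, 7.64, 13.6, 9.45 and 11.9 in *sae2Δ*. Relative to each library's background *ZIP2* stood at 1.07, 1.34, 1.17 and 1.35 times in the 4 genotypes, in the same order, and *SPO1* at 2.18 (SD 2.50), 1.15, 1.25 and 1.14 times. *ZIP2* was the only member under 2 times background in every genotype, as were 8.62% of all promoters.

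In the Spo11-inactive library, member values ran from 41.1 HpM at *ZIP3* (95% exact Poisson interval 34.0 to 49.2, counting error only) to 80.8 HpM at *REC102* (70.7 to 91.9), and all 33 lay under 2 times background, with a median of 1.22. *REC102* was the highest, at 1.84 times background (1.61 to 2.10) and the 97.8th percentile of all promoters in that library. *MSH4* read 50.9 HpM, *CSM4* 46.0, *IME1* 49.8 and *ZIP1* 46.3, each below every replicate with active Spo11. For the weakest members the order in HpM was the other way round, with *DMC1* at 47.7 HpM in the Spo11-inactive library and at 7.09 to 40.6 HpM in replicates with active Spo11. HpM includes background, which at 73.1 HpM per kb was higher in the Spo11-inactive library than in any active replicate. Relative to background *DMC1* was not reversed, at 1.09 times there (0.91 to 1.29) and at means of 1.55 to 2.84 times in the active genotypes. *ZIP2* went the other way, at 1.42 times (1.22 to 1.65), above its mean in every active genotype.

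The promoter exceeded the gene's own ORF per kb in 33 of 33 members, as it did in 92.1% of all genes. The median ratio of promoter to ORF density was 3.24 for members and 3.75 for all genes. It was greatest for *MSH4* (19.8), *IME1* (16.8) and *ZIP1* (15.8) and least for *ZIP2* and *SPO1* (1.11 each). *MER2*, also called *REC107*, had the highest ORF density of the members, 71.5 HpM per kb. The *MER2* ORF read 105.9, 93.5, 59.5, 86.9 and 57.4 HpM per kb in *sae2Δ ndt80Δ tel1Δ*, 67.7, 51.5, 52.4 and 25.5 in *sae2Δ ndt80Δ*, 123, 107.8, 84.4 and 109.1 in *sae2Δ tel1Δ*, and 53.7, 46.4, 55.2, 41.0 and 53.9 in *sae2Δ*. Every *sae2Δ tel1Δ* value was above every *sae2Δ* value, yet the log2 ratio of 1.08 ± 0.32 did not pass over all ORFs (edgeR, adjusted p = 0.262).

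**Figure D2:**
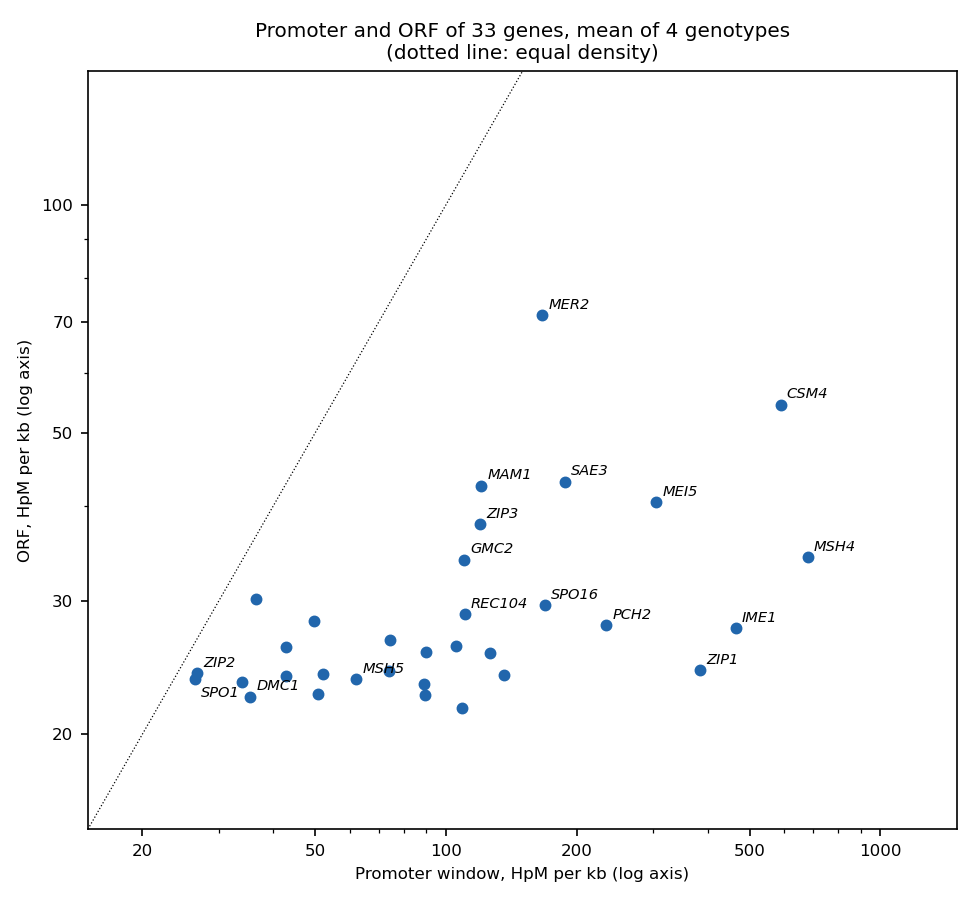
Mean density (HpM per kb, log axes) over the promoter against that over the ORF for the 33 genes, averaged over the 4 genotypes with active Spo11. All 33 members lie on the promoter side of the line of equal density, from 1.11 times at *ZIP2* and *SPO1* to 19.8 times at *MSH4*.

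Signal was also placed within the upstream window. When the reads from 1000 bp upstream to 500 bp downstream of the start codon were smoothed, the maximum fell within the 600 bp upstream in 30 of 33 members in *sae2Δ ndt80Δ tel1Δ*, 30 in *sae2Δ ndt80Δ*, 29 in *sae2Δ tel1Δ* and 30 in *sae2Δ*, against 81.6 to 82.7% of all genes, and in 21 members (51.5% of all genes) in the Spo11-inactive library. *SPO11* was an exception in all 4 genotypes, with its weak maximum 10 to 42 bp inside its own ORF, and the *REC8* maximum lay at the upstream edge of the region examined. *CSM4* and *MSH4* each had a single sharp peak, in *sae2Δ* at positions -139 and -129 from the start codon, that was 57.7 and 12.6 times the next peak. *ZIP1* had a pair of nearly equal peaks at positions -283 and -563. The peak at -283 was the higher in *sae2Δ ndt80Δ tel1Δ* and *sae2Δ ndt80Δ* (1.09 and 1.12 times the other), and the peak at -563 in *sae2Δ tel1Δ* and *sae2Δ* (1.07 and 1.21 times). *IME1* peaked at -513 or -514 in every genotype. *MEK1* had a main peak (-500 in *sae2Δ*) and a lesser one nearer the gene (-187), in a ratio of 2.11 to 3.08.

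**Figure D3:**
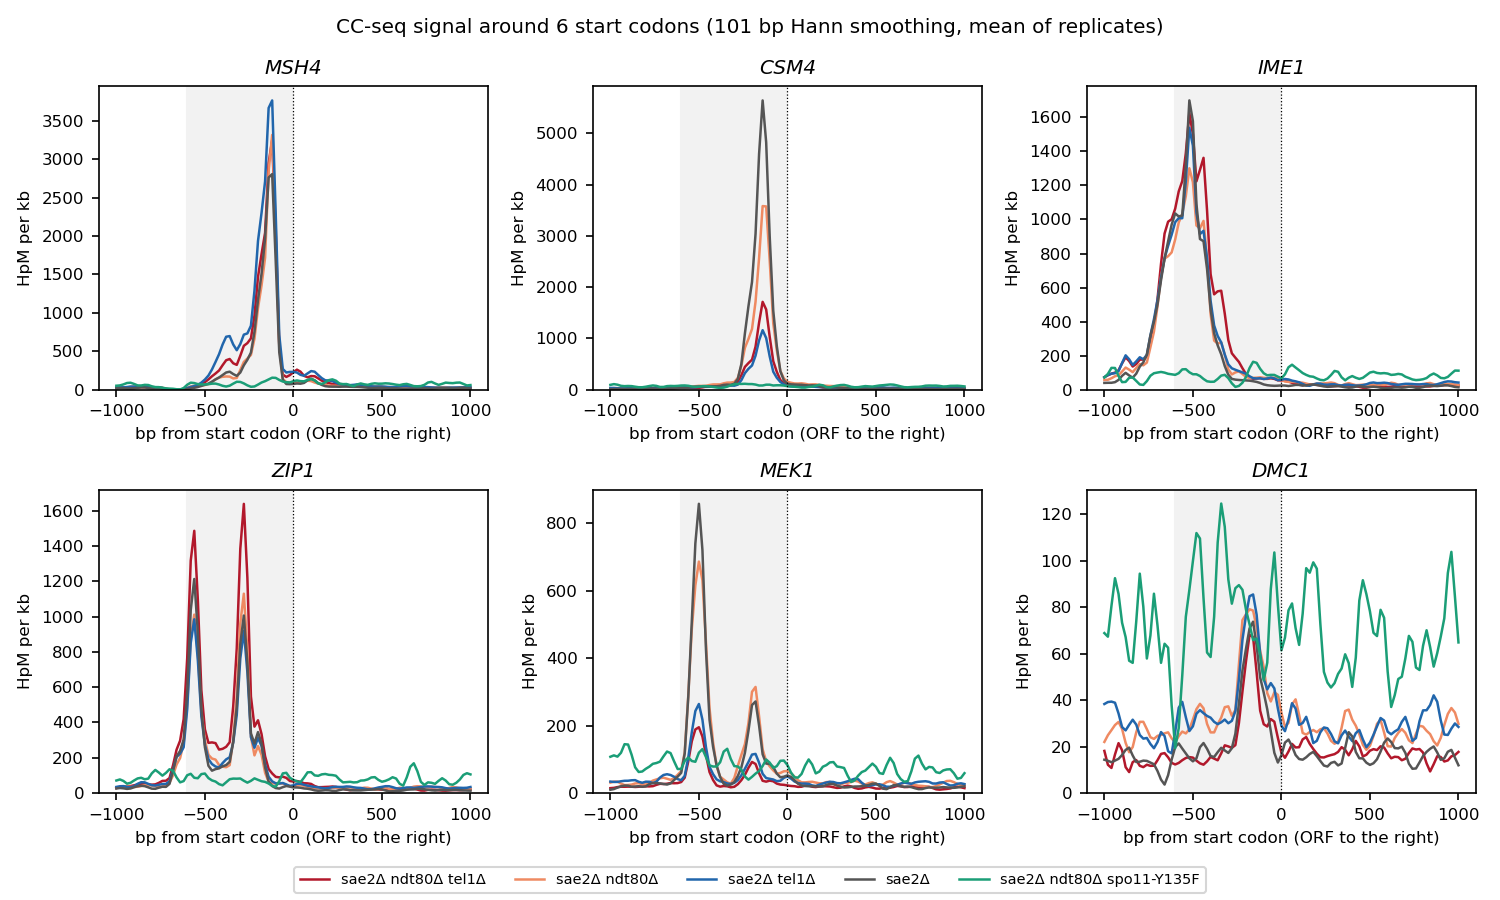
Smoothed signal (HpM per kb) by distance from the start codon (bp, negative values upstream) for *MSH4*, *CSM4*, *IME1*, *ZIP1*, *MEK1* and *DMC1*, with 1 line per genotype. The *CSM4* peak reached 5648 HpM per kb in *sae2Δ* and 1160 in *sae2Δ tel1Δ* at the same place, while *DMC1* reached at most 86.5 HpM per kb in the 4 genotypes with active Spo11.

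The windows were not all purely intergenic. The 600 bp included part of a neighbouring ORF in 19 of 33 members (64.8% of all genes), and the intergenic stretch was shortest at *ZIP3*, with 31 bp. The share of promoter reads on the Watson strand in *sae2Δ* ran from 29.1% at *IME1* to 69.8% at *MSH5*.

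Without Tel1, more member promoters fell than rose in both backgrounds. Promoters in general did so too when scaled by nuclear reads, but not with every scaling in *ndt80Δ* cells. In *sae2Δ tel1Δ* relative to *sae2Δ*, 9 of 33 promoters fell (20% of the 5781 promoters tested fell) and 1 rose (4.08% of all), by the quasi-likelihood test of edgeR, adjusted over all promoters by Benjamini-Hochberg, at a threshold of 0.05. In *sae2Δ ndt80Δ tel1Δ* relative to *sae2Δ ndt80Δ*, 11 fell (16.7% of all) and 0 rose (6.76% of all). The median log2 ratio of the members was -0.14 in the first comparison (all promoters -0.06) and -0.48 in the second (all promoters -0.24). These comparisons share no library, and *CSM4*, *GMC2*, *MEK1*, *MSH5*, *REC104* and *ZIP3* fell in both, 66.7% of the first list and 54.5% of the second. Of all promoters that fell, 615 did so in both, 53.2% of 1155 and 63.5% of 968.

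Scaling bears on these directions. With TMM factors the median of all promoters was 0.11 and -0.07 in the same comparisons, and the members' calls became 4 higher and 8 lower, and 4 higher and 9 lower. Over all 5781 promoters the TMM calls were 639 higher and 1005 lower in the first, and 914 higher and 764 lower in the second. With DESeq2 the members' calls were 4 higher and 9 lower, and 5 higher and 10 lower, among 617 higher and 1162 lower, and 1035 higher and 842 lower, of 5826 promoters. In the second comparison, promoters in general thus rose more often than they fell with either scaling, while members fell more often. Without the time-course libraries the members' calls were 6 higher and 12 lower in the first and 4 higher and 21 lower in the second, of 1036 higher and 1941 lower, and 860 higher and 2378 lower, among 5784 promoters. The first comparison holds no time-course library, so what changed there is the shared estimate of spread and the set of promoters tested. The second was left with replicates 1 and 2 of each genotype. When the triple mutant and *sae2Δ ndt80Δ* were fitted alone, 3 members stayed lower, of 80 higher and 367 lower among 5780 promoters, and *CSM4*, *RED1*, *HOP1*, *ZIP4*, *MER3*, *REC104*, *MSH5* and *ECM11* were not called (adjusted p = 0.0509 to 0.195). By contrast, *sae2Δ tel1Δ* and *sae2Δ* fitted alone gave more member calls than the main fit. The count over all promoters in that fit is not given here, so those calls do not set members apart from other promoters.

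**Figure D4:**
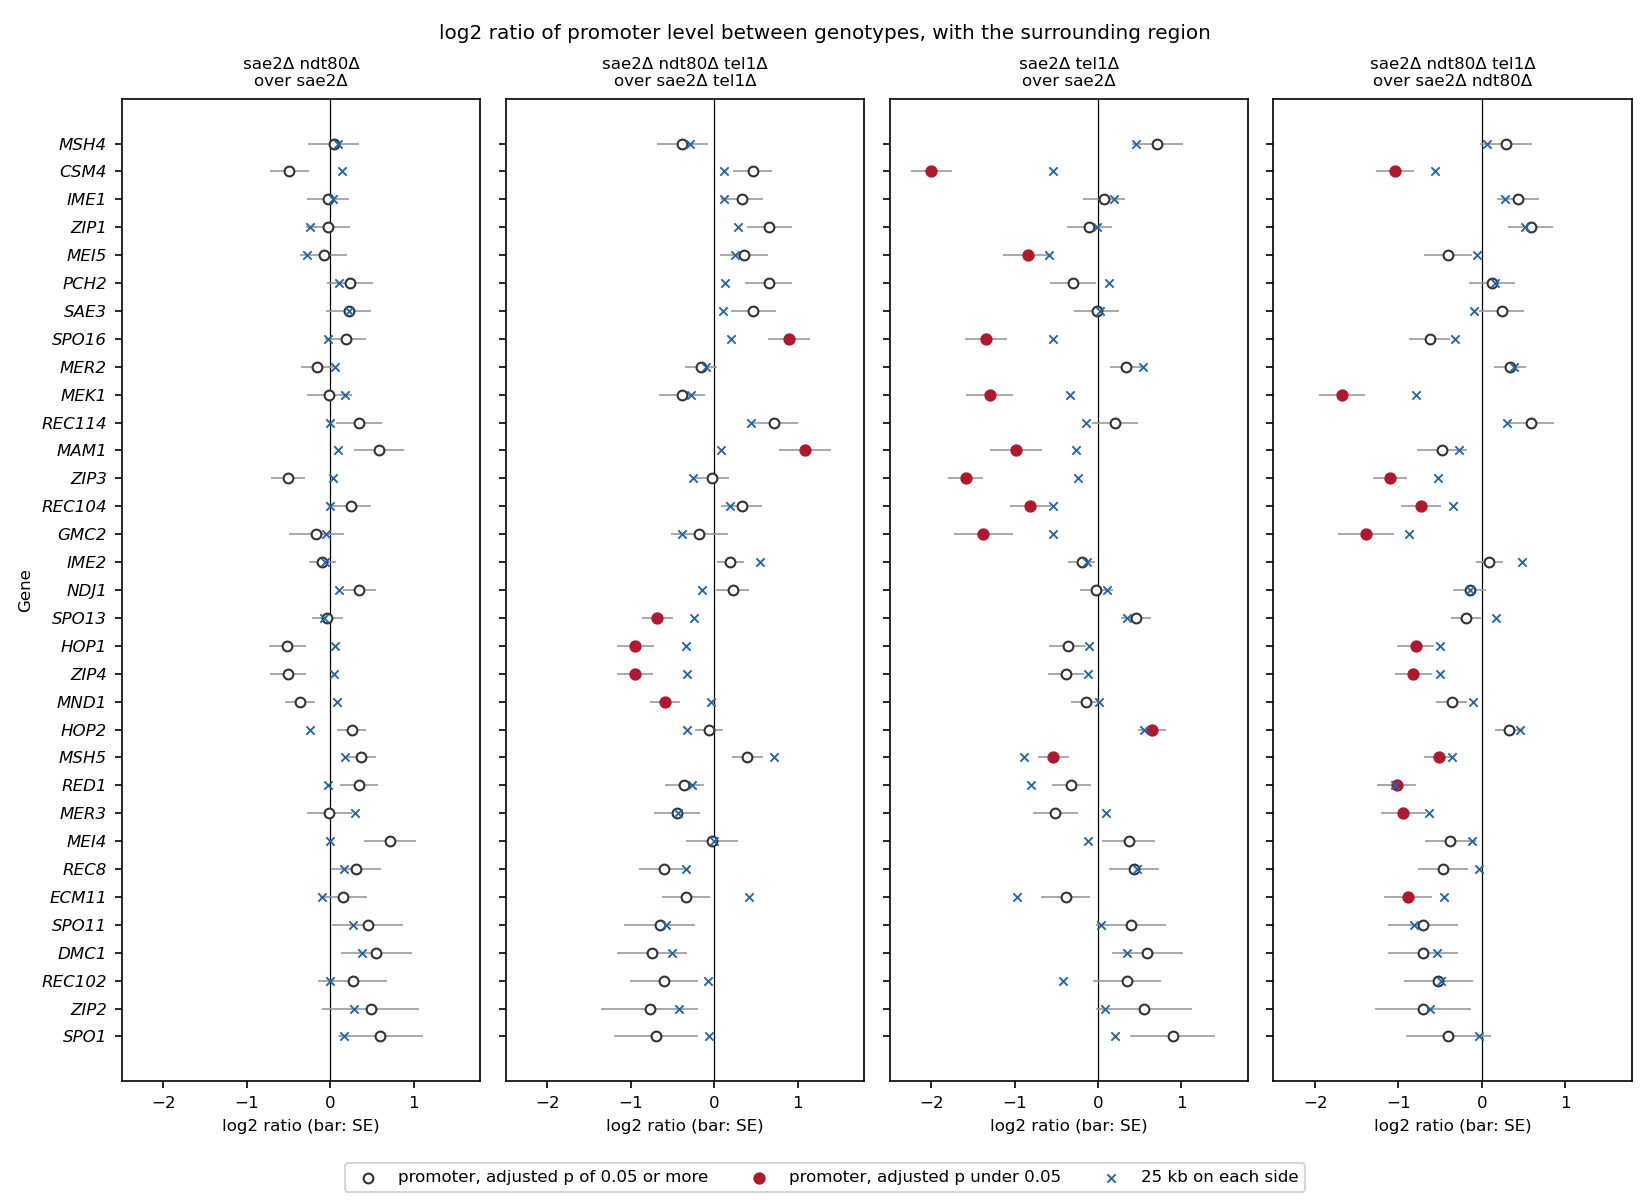
Log2 ratio of the promoter level ± SE (edgeR) for each of the 33 genes in the 4 comparisons. Filled points passed an adjusted p of 0.05, and crosses give the log2 ratio of the reads within 25 kb on each side. Ratios ran from -1.998 to 0.90 for *sae2Δ tel1Δ* over *sae2Δ*, and the called points lie on the same side of 0 as their crosses.

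*CSM4*, which links telomeres to the motor that moves chromosomes in prophase, had the greatest change (chromosome XVI, 170884 to 171483). Its promoter read 237, 260, 244, 136 and 182 HpM in *sae2Δ ndt80Δ tel1Δ*, 290, 595, 336 and 521 in *sae2Δ ndt80Δ*, 167, 143, 146 and 158 in *sae2Δ tel1Δ*, and 585, 717, 510, 614 and 640 in *sae2Δ*. The groups with and without Tel1 did not overlap in either background. The log2 ratio was -1.998 ± 0.25 for *sae2Δ tel1Δ* over *sae2Δ* (adjusted p = 4.65e-06) and -1.04 ± 0.23 for the triple mutant over *sae2Δ ndt80Δ* (adjusted p = 0.0024). Both *CSM4* calls held with each replicate left out in turn. Reads within 25 kb on each side moved the same way by less, with log2 ratios of -0.54 and -0.56. *NDJ1*, the telomere protein that acts with Csm4, did not pass in any comparison, with log2 ratios between -0.15 ± 0.20 and 0.35 ± 0.20.

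*MEK1*, the kinase that directs repair towards the homologue, also fell in both backgrounds (chromosome XV, 996512 to 997111). Its promoter read 19.97, 21.5, 36.6, 58.9 and 50.3 HpM in *sae2Δ ndt80Δ tel1Δ*, 73.9, 103, 134 and 167 in *sae2Δ ndt80Δ*, 48.9, 47.2, 41.7 and 57.7 in *sae2Δ tel1Δ*, and 154, 133, 102, 97.9 and 115 in *sae2Δ*. All replicates without Tel1 were below all replicates of the matching genotype with Tel1. Log2 ratios were -1.30 ± 0.28 (adjusted p = 0.0014) with Ndt80 and -1.67 ± 0.28 (adjusted p = 0.00017) without it. The region around *MEK1* changed by -0.34 and -0.79.

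Of the other axis genes, *RED1* and *HOP1* were called lower without Tel1 in *ndt80Δ* cells. *RED1*, the axis core protein (chromosome XII, 669740 to 670339), read 14.0, 14.0, 24.3, 34.4 and 19.2 HpM in *sae2Δ ndt80Δ tel1Δ*, 45.4, 40.4, 44.3 and 42.3 in *sae2Δ ndt80Δ*, 19.7, 31.7, 27.3 and 30.2 in *sae2Δ tel1Δ*, and 32.6, 34.7, 32, 37.5 and 32.3 in *sae2Δ*. It fell in the triple mutant relative to *sae2Δ ndt80Δ*, by 1.02 ± 0.23 on the log2 scale (adjusted p = 0.0026), with no overlap, and its surroundings changed as much (-1.04). In *sae2Δ tel1Δ* over *sae2Δ* the *RED1* ratio was -0.32 ± 0.23 (adjusted p = 0.35). *REC8*, the meiotic cohesin subunit, did not pass in any comparison and averaged 25.6 HpM.

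*HOP1*, the axis protein that Tel1 and Mec1 phosphorylate, shares its window with *ZIP4*, a ZMM scaffold protein, so nearly the same reads stand behind both. *HOP1* read 26.7, 21.1, 39.9, 42.6 and 19.8 HpM in *sae2Δ ndt80Δ tel1Δ*, 55.0, 49.5, 68.0 and 36.2 in *sae2Δ ndt80Δ*, 63.4, 58.7, 58.1 and 51.4 in *sae2Δ tel1Δ*, and 71.8, 87.3, 66.6, 90.4 and 56.4 in *sae2Δ* (chromosome IX, 226002 to 226601). The triple mutant had the lowest mean. It fell relative to *sae2Δ tel1Δ* by 0.95 ± 0.22 on the log2 scale with no overlap (adjusted p = 0.0075), and relative to *sae2Δ ndt80Δ* by 0.79 ± 0.22 (adjusted p = 0.012), where replicate 4 of *sae2Δ ndt80Δ* lay inside the triple-mutant range. Without replicate 3 of *sae2Δ ndt80Δ* the second call was lost (adjusted p = 0.0542). *ZIP4* gave -0.95 (adjusted p = 0.0071) and -0.82 (adjusted p = 0.0086). Neither *ZIP4* call held over 300 bp upstream (-0.66, adjusted p = 0.248, and -0.63, adjusted p = 0.227).

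Among the 6 members of the break machinery, *REC104* alone passed. *REC104*, a subunit of the Spo11 core complex (chromosome VIII, 412307 to 412906), read 35.8, 42.6, 55.8, 50.1 and 89.6 HpM in *sae2Δ ndt80Δ tel1Δ*, 64.8, 82.4, 68.0 and 146 in *sae2Δ ndt80Δ*, 35.6, 42.3, 47.8 and 48.2 in *sae2Δ tel1Δ*, and 69.0, 89.8, 73.9, 71.5 and 76.6 in *sae2Δ*. The *sae2Δ tel1Δ* and *sae2Δ* values did not overlap, with a log2 ratio of -0.81 (adjusted p = 0.0173), a call that was lost without replicate 1 of *sae2Δ tel1Δ* (adjusted p = 0.0708). In the triple mutant over *sae2Δ ndt80Δ* the log2 ratio was -0.73 (adjusted p = 0.0301), and it was -0.40 (adjusted p = 0.168) without replicate 4 of *sae2Δ ndt80Δ*. That call was also lost without replicate 1, 2 or 3 of the triple mutant, with adjusted p of 0.0885, 0.0805 and 0.053. *SPO11*, *REC102*, *REC114*, *MER2* and *MEI4* did not pass in any promoter comparison. *REC114*, a partner of Mer2 and Mei4, had log2 ratios above 0 throughout, up to 0.72 ± 0.28 for the triple mutant over *sae2Δ tel1Δ* (adjusted p = 0.090).

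*ZIP3*, the SUMO ligase of the ZMM group, fell in both backgrounds (chromosome XII, 907350 to 907949). It read 42.7, 43.4, 36.6, 38.8 and 37.6 HpM in *sae2Δ ndt80Δ tel1Δ*, 81.3, 136, 70.2 and 55.2 in *sae2Δ ndt80Δ*, 34.3, 41.8, 41.1 and 44.9 in *sae2Δ tel1Δ*, and 93.5, 140, 128, 126 and 120 in *sae2Δ*. Both *tel1Δ* genotypes lay at 34.3 to 44.9 HpM, below every replicate with Tel1. Log2 ratios were -1.59 ± 0.21 with Ndt80 (adjusted p = 1.15e-05) and -1.11 ± 0.20 without it (adjusted p = 0.00044), and both calls held with each replicate left out.

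*SPO16*, the partner of Zip2 and Zip4, was lower in *sae2Δ tel1Δ* than in *sae2Δ* and higher in the triple mutant than in *sae2Δ tel1Δ* (chromosome VIII, 402683 to 403282). It read 95.1, 95.5, 96.7, 63.8 and 105 HpM in *sae2Δ ndt80Δ tel1Δ*, 116, 167, 71.6 and 208 in *sae2Δ ndt80Δ*, 44.3, 44.7, 54.1 and 52.3 in *sae2Δ tel1Δ*, and 115, 131, 94.5, 176 and 103 in *sae2Δ*. The *sae2Δ tel1Δ* values lay below all the others. The log2 ratio of *sae2Δ tel1Δ* over *sae2Δ* was -1.34 ± 0.26 (adjusted p = 0.00043) and that of the triple mutant over *sae2Δ tel1Δ* was 0.90 ± 0.25 (adjusted p = 0.0219). The second call was lost without replicate 3 of the triple mutant (adjusted p = 0.0505) or replicate 1, 2 or 4 of *sae2Δ tel1Δ* (0.0744, 0.0707 and 0.0558). The triple mutant over *sae2Δ ndt80Δ* gave -0.63 ± 0.24 (adjusted p = 0.066).

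*GMC2* and *ECM11* encode the central element of the synaptonemal complex, and *GMC2* was the more affected. *GMC2* (chromosome XII, 1023589 to 1024188) read 13.8, 17.2, 31.9, 44.5 and 65.4 HpM in *sae2Δ ndt80Δ tel1Δ*, 59.5, 65.3, 66.6 and 168 in *sae2Δ ndt80Δ*, 36.0, 39.6, 40.6 and 39.4 in *sae2Δ tel1Δ*, and 124, 109, 96.2, 79.8 and 94.5 in *sae2Δ*. Ratios were -1.37 ± 0.35 with Ndt80 (adjusted p = 0.0051), with no overlap, and -1.39 ± 0.34 without it (adjusted p = 0.0045), where replicate 5 of the triple mutant lay within the *sae2Δ ndt80Δ* range. Without replicate 4 of *sae2Δ ndt80Δ* the second was -0.90 (adjusted p = 0.028). The 25 kb around *GMC2* changed by -0.54 and -0.88. *ECM11* averaged 17.7 ± 7.5 HpM in the triple mutant (n = 5) and 32.8 ± 3.5 HpM in *sae2Δ ndt80Δ* (SD, n = 4), a log2 ratio of -0.89 (adjusted p = 0.0264) that was no longer called without replicate 1 or 3 of *sae2Δ ndt80Δ* or replicate 1, 2 or 3 of the triple mutant (adjusted p = 0.0524 to 0.0706), or with TMM factors (0.0516).

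*MER3*, the ZMM helicase, averaged 19.5 ± 9.6 HpM in the triple mutant (n = 5) and 37.7 ± 7.0 HpM in *sae2Δ ndt80Δ* (SD, n = 4), a log2 ratio of -0.94 that passed (adjusted p = 0.014). *MSH5*, the partner of Msh4, gave ratios of -0.54 in *sae2Δ tel1Δ* over *sae2Δ* (adjusted p = 0.0368) and -0.51 in the triple mutant over *sae2Δ ndt80Δ* (adjusted p = 0.0427). With TMM factors neither passed (adjusted p = 0.113 and 0.125). The size of the first depended on background and window. It was -1.305 with background subtracted, -0.88 over 300 bp, -0.92 with the window cut at the neighbouring ORF, and -0.27 over 1000 bp (adjusted p = 0.388). The second was not called with any of these windows (adjusted p = 0.0575 to 0.125). *MSH5* averaged 34.8 ± 4.7 HpM in *sae2Δ ndt80Δ tel1Δ*, 49.5 ± 6.6 in *sae2Δ ndt80Δ*, 26.5 ± 5.2 in *sae2Δ tel1Δ* and 38.2 ± 6.4 in *sae2Δ*. The first *MSH5* call was lost without replicate 1, 2, 3 or 5 of *sae2Δ* or replicate 1 or 2 of *sae2Δ tel1Δ* (adjusted p = 0.0716 to 0.157), and the second without replicate 1 or 4 of *sae2Δ ndt80Δ*, replicate 1 or 2 of the triple mutant, or replicates of the other genotypes that share the estimate of spread (replicates 1, 2 and 3 of *sae2Δ*, 2 and 4 of *sae2Δ tel1Δ*; adjusted p = 0.0516 to 0.116 over these 9). *PCH2*, the AAA+ ATPase that remodels Hop1, did not pass in any comparison, with averages of 168 ± 64 HpM in *sae2Δ ndt80Δ tel1Δ*, 155 ± 74 in *sae2Δ ndt80Δ*, 107 ± 6 in *sae2Δ tel1Δ* and 131 ± 27 in *sae2Δ*.

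*HOP2*, which with Mnd1 helps Dmc1 find the homologue, was the only member promoter called higher without Tel1 (with TMM factors there were 4 in each comparison). It read 40.5, 39.6, 56.7, 57.3 and 58.5 HpM in *sae2Δ ndt80Δ tel1Δ*, 40.0, 30.6, 50.6 and 39.8 in *sae2Δ ndt80Δ*, 53.1, 50.9, 54.7 and 52.1 in *sae2Δ tel1Δ*, and 37.9, 30.8, 35.3, 35.3 and 29.3 in *sae2Δ* (chromosome VII, 435025 to 435624). The *sae2Δ tel1Δ* and *sae2Δ* values were apart, with a log2 ratio of 0.65 ± 0.17 (adjusted p = 0.0064), beside 0.55 for the 25 kb around it. Set against the surrounding 25 kb the *HOP2* ratio was 0.10 (adjusted p = 0.759). Between the triple mutant and *sae2Δ ndt80Δ* the *HOP2* ratio was 0.33 ± 0.17 (adjusted p = 0.17).

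*MEI5*, which loads Dmc1 together with Sae3, averaged 127 ± 2.7 HpM in *sae2Δ tel1Δ* (n = 4) and 227 ± 28 HpM in *sae2Δ* (SD, n = 5), with no overlap and a log2 ratio of -0.84 (adjusted p = 0.0366). The call was lost in turn without 8 of the 9 replicates of these genotypes, all but replicate 3 of *sae2Δ*, with adjusted p of 0.0517 to 0.0857. *SAE3* and *DMC1* did not pass in any comparison.

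*MAM1*, a subunit of the monopolin complex that holds sister kinetochores together at meiosis I, followed the pattern of *SPO16* (chromosome V, 371726 to 372325). It read 53.9, 56.3, 83.1, 51.5 and 138 HpM in *sae2Δ ndt80Δ tel1Δ*, 64.8, 71.5, 79.3 and 211 in *sae2Δ ndt80Δ*, 36.7, 36.7, 37.4 and 32.2 in *sae2Δ tel1Δ*, and 79.9, 83.3, 58.5, 67.6 and 64.1 in *sae2Δ*. The *sae2Δ tel1Δ* values were below all the others. The *MAM1* log2 ratio was -0.98 ± 0.31 for *sae2Δ tel1Δ* over *sae2Δ* (adjusted p = 0.0234) and 1.09 ± 0.31 for the triple mutant over *sae2Δ tel1Δ* (adjusted p = 0.0241). The first was lost without replicate 2 of *sae2Δ* or any single replicate of *sae2Δ tel1Δ* (adjusted p = 0.0504 to 0.0666). The second was lost without replicate 3 or 5 of the triple mutant or any single replicate of *sae2Δ tel1Δ* (adjusted p = 0.0548 to 0.0773). With the library series as a covariate the second was 0.52 (adjusted p = 0.145), and without the time-course libraries 0.62 (adjusted p = 0.00019).

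**Figure D5:**
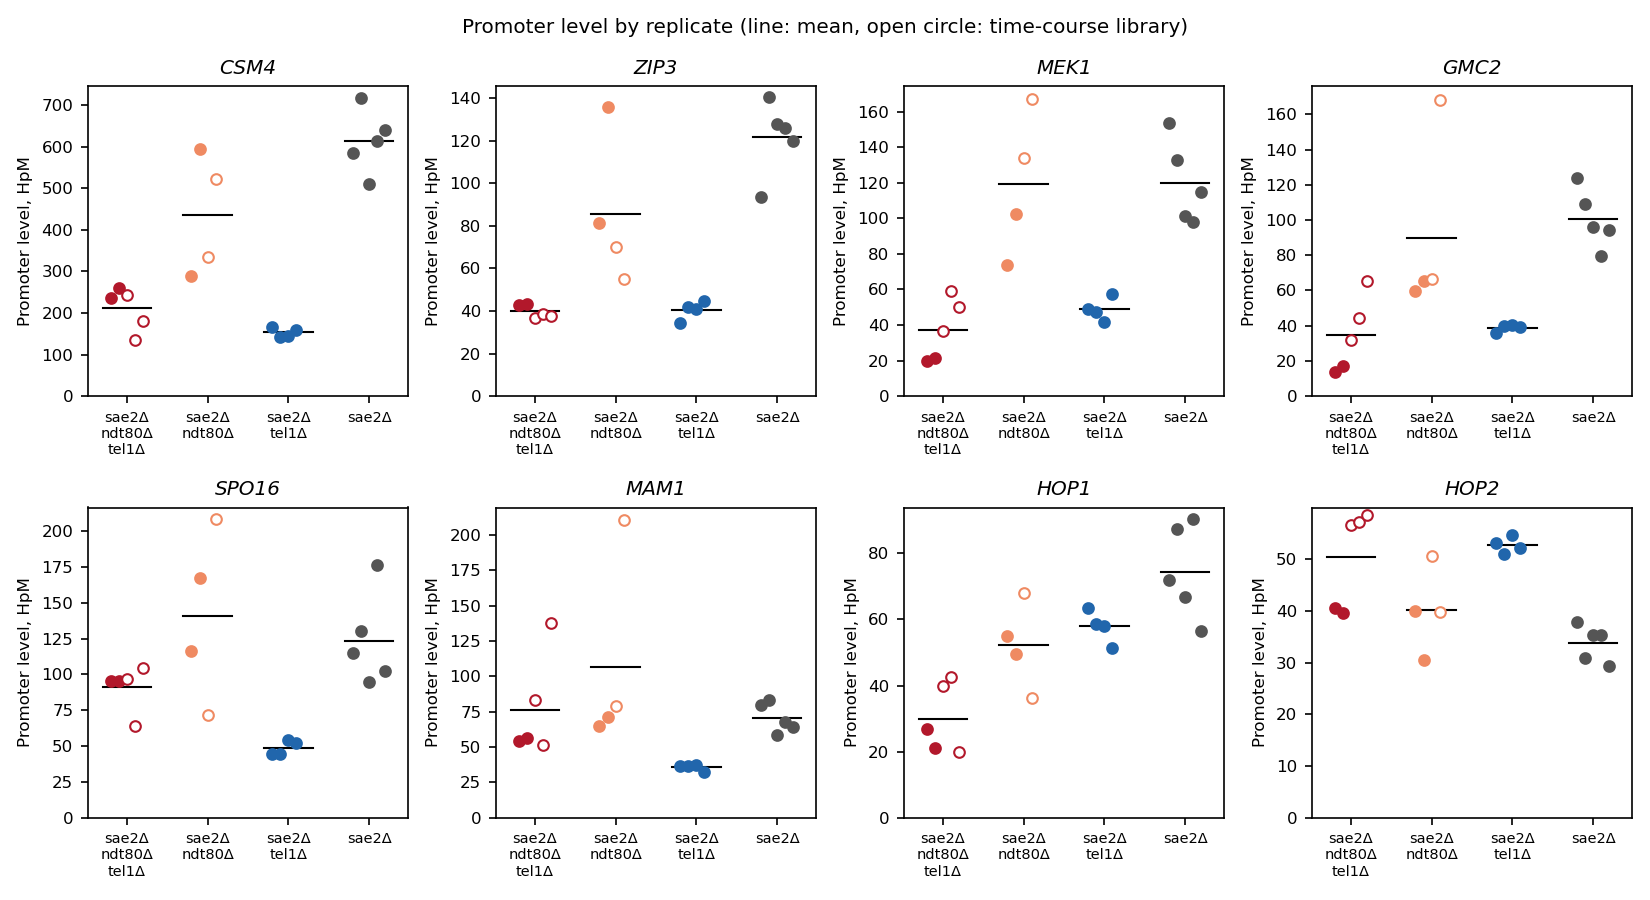
Promoter level (HpM) of *CSM4*, *ZIP3*, *MEK1*, *GMC2*, *SPO16*, *MAM1*, *HOP1* and *HOP2* in each replicate, with a line at the mean of each genotype and open circles for time-course libraries. *ZIP3* lies at 34.3 to 44.9 HpM in both *tel1Δ* genotypes and at 55.2 HpM or more in the others, and *SPO16* and *MAM1* are lowest in *sae2Δ tel1Δ*.

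Removal of Ndt80 had no called effect on member promoters where Tel1 was present. In *sae2Δ ndt80Δ* over *sae2Δ*, 0 of 33 members passed by edgeR, as did 0% of all promoters, with 6 members and 705 of 5781 promoters at an unadjusted p under 0.05. DESeq2 called 0 members and 111 promoters. The smallest p-values among members belonged to *ZIP3*, with a log2 ratio of -0.50 ± 0.20 (adjusted p = 0.334), and *HOP1*, with -0.52 ± 0.22 (adjusted p = 0.366). Without replicate 2 of *sae2Δ ndt80Δ* the *ZIP3* ratio was -0.82 and passed (adjusted p = 0.0295), as did 17 promoters higher and 132 lower of 5782. Without the time-course libraries, which left 2 replicates of *sae2Δ ndt80Δ*, 5 members passed, 1 higher and 4 lower, of 155 higher and 494 lower among 5784 promoters, and *HOP1* was among them (-0.52, adjusted p = 0.0095).

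Where Tel1 was absent, removal of Ndt80 moved 6 promoters. In *sae2Δ ndt80Δ tel1Δ* over *sae2Δ tel1Δ*, *MAM1* and *SPO16* rose (9.67% of all promoters rose), and *HOP1*, *ZIP4*, *SPO13* and *MND1* fell (3.46% of all fell). The groups did not overlap for 5 of them, the exception being *MND1*. The median ratio of the members was -0.16 and that of all promoters -0.03. With TMM factors 5 were higher and 4 lower, among 957 and 248 of all 5781, with DESeq2 6 and 4, among 1082 and 288 of 5826, and without the time-course libraries, which left 2 triple-mutant replicates, 7 and 17, among 1108 higher and 2335 lower of 5784 promoters. Without replicate 4 of the triple mutant, 6 members were higher and 11 lower, 17 in all, among 955 higher and 738 lower of 5781.

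*SPO13*, which protects cohesion and kinetochore orientation at meiosis I, read 35.2, 31.0, 49.8, 54.1 and 49.5 HpM in *sae2Δ ndt80Δ tel1Δ*, 50.0, 37.4, 60.3 and 53.0 in *sae2Δ ndt80Δ*, 66.7, 76.4, 78.3 and 59.7 in *sae2Δ tel1Δ*, and 51.3, 49.2, 53.3, 60.3 and 42.6 in *sae2Δ* (chromosome VIII, 131447 to 132046). Its mean was highest in *sae2Δ tel1Δ*. The *SPO13* ratio of the triple mutant over *sae2Δ tel1Δ* was -0.68 ± 0.18 (adjusted p = 0.0159), and the call was lost without replicate 2 or 3 of *sae2Δ tel1Δ* (adjusted p = 0.0555 and 0.0573). *MND1*, the partner of Hop2, read 27.6, 28.2, 34.5, 46.5 and 26.7 HpM in *sae2Δ ndt80Δ tel1Δ*, 39.2, 46.3, 52.8 and 30.0 in *sae2Δ ndt80Δ*, 51.8, 46.0, 52.8 and 45.8 in *sae2Δ tel1Δ*, and 50.3, 57.7, 55.2, 59.2 and 48.4 in *sae2Δ* (chromosome VII, 157286 to 157885). Replicate 4 of the triple mutant lay within the *sae2Δ tel1Δ* range. The *MND1* ratio was -0.59 ± 0.18 (adjusted p = 0.0358), and the call was lost in turn without 8 of the 9 replicates, all but replicate 4 of the triple mutant (adjusted p = 0.0633 to 0.0986).

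Whether Tel1 acted differently with and without Ndt80 was tested as an interaction. It passed for 0 of 33 members and 2 of 5781 promoters (0.0346% of all), with 5 members and 939 promoters at an unadjusted p under 0.05. *CSM4* came closest, with an interaction of 0.96 ± 0.33 on the log2 scale (adjusted p = 0.180), followed by *SPO13* with -0.65 ± 0.26 (adjusted p = 0.237). Hence the differences between backgrounds noted for *SPO16*, *MAM1*, *RED1* and *HOP1* are not shown to differ by this test. *CSM4* passed with DESeq2 (1.06, adjusted p = 0.0244), without replicate 4 of *sae2Δ ndt80Δ* (1.06, adjusted p = 0.048) and without replicate 4 of the triple mutant (1.08, adjusted p = 0.0276). *SPO13* passed with the library series as a covariate (-0.71, adjusted p = 0.0414), the only member to do so, beside 170 promoters higher and 77 lower of 5781. Both passed without the time-course libraries, *CSM4* at 1.17 (adjusted p = 0.00427) and *SPO13* at -0.85 (adjusted p = 0.000521). There 21 members passed, 6 higher and 15 lower, of 1165 higher and 1761 lower among 5784 promoters.

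Member ORFs did not pass in any comparison of the main fit. Some other settings, such as leaving out the time-course libraries, did call member ORFs. Those counts are given at the end, without shares over all ORFs. For ORFs, 0 of 33 members were called in each of the 5 tests, where 0.138% of the 5784 ORFs passed for *sae2Δ tel1Δ* over *sae2Δ*, 0.19% for the triple mutant over *sae2Δ ndt80Δ* and 0% in the others. ORF ratios lay near those of background, which is itself read over 47 of the longest ORFs, so a likeness is partly built in. Medians are given in the order *sae2Δ ndt80Δ* over *sae2Δ*, triple mutant over *sae2Δ tel1Δ*, *sae2Δ tel1Δ* over *sae2Δ*, and triple mutant over *sae2Δ ndt80Δ*. On the log2 scale they were 0.78, -0.60, 0.76 and -0.62 for member ORFs, and 0.64, -0.55, 0.70 and -0.52 for all ORFs. The ratio of mean background was 0.73, -0.63, 0.75 and -0.61. In the edgeR fit with background subtracted, 29 of the single-gene promoter ratios kept direction and call. The other 2 lost the call, both in the triple mutant over *sae2Δ ndt80Δ*: *MSH5* (-0.73, adjusted p = 0.053) and *ECM11* (-1.52, adjusted p = 0.0545). Sizes moved for some that kept it. In the triple mutant over *sae2Δ ndt80Δ*, *RED1* became -1.59, *MER3* -1.50, *ZIP4* -1.25 and *HOP1* -1.20. In *sae2Δ tel1Δ* over *sae2Δ*, *MSH5* became -1.305. Weak promoters such as *ZIP2*, *SPO1*, *DMC1*, *REC102* and *SPO11* were not among these ratios, and the part of background in theirs was not tested.

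Promoter changes went with those of the surrounding chromosome. All of the called members, 6 in the triple mutant over *sae2Δ tel1Δ*, 10 in *sae2Δ tel1Δ* over *sae2Δ* and 11 in the triple mutant over *sae2Δ ndt80Δ*, had a promoter ratio of the same sign as the reads within 25 kb on each side, as had 87.5%, 89.8% and 96.3% of all called promoters. When each promoter was set against those 25 kb, 1, 3 and 0 member calls were left. Calls over all promoters dropped as well, to 117 higher and 36 lower, 139 and 376, and 76 and 42 of 5781. *MND1* stayed lower in the first, and *CSM4*, *ZIP3* and *MEK1* in the second. The *MSH5* ratio in *sae2Δ tel1Δ* over *sae2Δ* turned to 0.34 (adjusted p = 0.213), and its surroundings had fallen by 0.89 on the log2 scale.

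Other genes of recombination and meiotic entry were counted beside the members. Of 27 promoters of other recombination and repair genes, 2 fell in *sae2Δ tel1Δ* over *sae2Δ* (20% of all promoters fell) and 0 rose (4.08% of all). Those that fell were *MLH3*, of the crossover nuclease, with a log2 ratio of -1.07 ± 0.20, and *SKI8*, which binds Spo11, with -0.76 ± 0.22. In the triple mutant over *sae2Δ ndt80Δ* 4 fell (*SKI8* -0.94 ± 0.21, *MLH3* -0.63 ± 0.20, *TOP3* -0.72 ± 0.23 and *HED1* -0.72 ± 0.25), beside 16.7% of all promoters. There *MEC1*, the ATR kinase, and *RAD54*, which acts in strand exchange, rose by 1.16 ± 0.21 and 0.96 ± 0.26 (6.76% of all promoters rose). For the triple mutant over *sae2Δ tel1Δ*, *EXO1*, the nuclease and crossover factor, rose by 1.72 ± 0.34 and *MEC1* by 0.81 ± 0.21 (9.67% of all promoters rose). None of this list fell there (3.46% of all promoters fell).

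Of 16 promoters of genes listed as regulators of early meiotic genes, 2 fell in *sae2Δ tel1Δ* over *sae2Δ* (*MCK1* -1.09 ± 0.25 and *IME4* -0.82 ± 0.22). In the triple mutant over *sae2Δ ndt80Δ* 3 fell (*MCK1* -1.004 ± 0.24, *RIM101* -0.73 ± 0.27 and *MER1* -0.64 ± 0.21), and 0 rose in either. Of all promoters, 20% and 16.7% fell in these comparisons, and 4.08% and 6.76% rose. In the triple mutant over *sae2Δ tel1Δ*, *RME1*, a repressor of *IME1*, rose by 0.74 ± 0.23 and *SIN3*, of the histone deacetylase complex, fell by 0.94 ± 0.20. There 9.67% of all promoters rose and 3.46% fell. Among the members, *IME1* and *IME2*, the kinase that acts downstream of Ime1, did not pass in any comparison, and *IME2* averaged 68.7 ± 11.7 HpM in *sae2Δ ndt80Δ tel1Δ*, 64.5 ± 2.2 in *sae2Δ ndt80Δ*, 60.0 ± 5.5 in *sae2Δ tel1Δ* and 68.7 ± 12.8 in *sae2Δ*. Median promoter density was 106 HpM per kb for the members, against 62.0 for the repair genes and 146 for the regulators.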

How the data were processed

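CC-seq libraries of 4 genotypes with active Spo11 and 1 Spo11-inactive control were analysed, each with 1 strain per genotype and cultures started from single colonies. The authors describe the replicates as independent biological ones. The deposited files held raw counts of read 1 ends per position and strand, which the authors made by aligning with Bowtie2 through TermMapper to the R64 genome with the *HIS4::LEU2* and *leu2::hisG* inserts added. Duplicate handling and the mapping-quality filter are not given in the sources used here. The control file held 2 stacked blocks, and the first block (3622725 reads) was used. Libraries that share a replicate number and differ by a letter were summed, which gave 18 replicates. Gene positions came from RefSeq's R64 table, and the members and lists were chosen with earlier results of these data known. 1 gene of the repair list is not reported here. No sequence of the promoters was analysed here.

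Counts over 600 bp upstream of each start codon, or over the ORF, were fitted with edgeR 4.0.16 (quasi-likelihood, R 4.3.3) across all promoters or ORFs and all 18 replicates, with nuclear reads outside the rDNA as library size, and adjusted by Benjamini-Hochberg at 0.05. The fitting script was tested on simulated data before use. Alternatives were TMM factors, DESeq2 1.42.0, a replicate block, the library series as covariate or left out, separate letter libraries, background subtraction, only the genotypes compared, a regional offset, other windows, and each replicate left out. Replicates 1 to 3 of *sae2Δ ndt80Δ* and *sae2Δ* deviated together (correlations 0.271, 0.554 and 0.601, all over 0.1), so their numbers were taken to pair them, from the data alone. Among these replicates, background was lowest in replicate 2 of both genotypes (14.8 and 11.8% of reads), and its part in the correlations was not tested. The main fit held no block, and the replicate block called 0 members there as well. In the other comparisons the correlations were not all over 0.1 (0.546, 0.00014, 0.436 and 0.541 for the triple mutant and *sae2Δ tel1Δ*). Values in every replicate are given for the 4 strongest and 2 weakest members and for at most 6 called members per comparison by p, or the 2 smallest p where 0 passed. *REC104* and the *MER2* ORF were added after their values were seen.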

Additional observations from a re-analysis of the deposited data

Results flagged for a closer look

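In 68 groups of replicates tested for a single value apart from the rest (17 genes in 4 genotypes, Dixon's criterion), 7 were marked, where chance marks about 1 in 20. *GMC2* and *MAM1* were marked in *sae2Δ ndt80Δ*, where replicate 4, a time-course library, was highest, at 168 and 211 HpM. *SPO16* was lowest at 63.8 HpM in replicate 4 of *sae2Δ ndt80Δ tel1Δ*, another time-course library. *ZIP1* and *MAM1* were lowest in replicate 4 of *sae2Δ tel1Δ*, at 178 and 32.2 HpM, and *SPO1* was lowest in replicate 1 of that genotype, at 16.4 HpM. *ZIP1* was highest in replicate 2 of *sae2Δ*, at 260 HpM.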

How the results depend on the processing

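Counts of called member promoters depended most on the library series and on the shared estimate of spread. In the order *sae2Δ ndt80Δ* over *sae2Δ*, triple mutant over *sae2Δ tel1Δ*, *sae2Δ tel1Δ* over *sae2Δ*, triple mutant over *sae2Δ ndt80Δ*, and interaction, the counts were 0, 6, 10, 11 and 0, and without the time-course libraries 5, 24, 18, 25 and 21. With series as a covariate the second was 11 and the interaction 1, with DESeq2 10 and 1, with only the genotypes compared *sae2Δ tel1Δ* over *sae2Δ* gave 24 and the triple mutant over *sae2Δ ndt80Δ* 3, and with the regional offset the middle 3 were 1, 3 and 0. The replicate block, whose numbers were taken to pair samples only in the first comparison, gave 0, 3, 9, 11 and 0. Over single replicates left out the counts ranged 0 to 1, 2 to 17, 6 to 11, 8 to 16 and 0 to 4. Names of single libraries that moved them by over 1.5 times were, for the second, replicates 3 (3 calls) and 4 (17) of the triple mutant and 1, 2, 3 and 4 of *sae2Δ tel1Δ* (3, 2, 3 and 3), for the third replicate 1 of *sae2Δ tel1Δ* (6), for the first replicate 2 of *sae2Δ ndt80Δ* (1), and for the interaction replicate 4 of *sae2Δ ndt80Δ* (3) and of the triple mutant (4). Counts over all promoters in the same fits are given above for some of these settings only. They are not given for the 24 calls or for most single replicates left out, so those counts do not set members apart from other promoters.

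For ORFs, where 0 members passed, 22, 2, 23 and 29 passed without the time-course libraries in all but the first comparison, 27 in the third with only its genotypes, 2 in the third and 3 in the triple mutant over *sae2Δ ndt80Δ* after background subtraction, 1 in the third with letter libraries kept apart and 1 in the triple mutant over *sae2Δ ndt80Δ* by DESeq2, while leaving out single replicates gave 0. Shares over all ORFs in these fits are not given here, so the counts do not set member ORFs apart from other ORFs. The median member level in *sae2Δ ndt80Δ*, 64.5 HpM, was 76.5 with background subtracted and 57.5 to 65.0 with a replicate left out. The regional median in *sae2Δ tel1Δ* over *sae2Δ* was -0.11, and 0.000776 within 10 kb. Each single-gene ratio was refitted under the alternative settings, many of which leave out 1 replicate. Counting each ratio once per setting, 834 kept direction and call, 116 lost the call and 8 gained it. *MSH5* reversed to 0.34 with the regional offset. With that offset alone 22 ratios lost the call and 8 stayed the same. Window length also moved calls. Over 300 bp upstream 7 ratios lost the call, those of *SPO13*, *MND1*, *HOP2*, *REC104* and *MSH5* and both of *ZIP4* (adjusted p = 0.0576 to 0.248). Over 1000 bp 6 lost it, those of *MND1*, *MAM1*, *MER3* and *ECM11* and both of *MSH5* (adjusted p = 0.057 to 0.388). With the window cut at the neighbouring ORF 2 did, of *MND1* and *MSH5*. The cause was not tested in any case. Depth limits *ZIP2* and *SPO1*, which held as few as 7 and 22 reads in a replicate.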
